A study of Homo sapiens with 4 samples.

Results

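FKBP5, ROCK2 and PIK3R3 are genes that the literature has named as targets of one or the other strand of the microRNA miR-511. They were followed here together with 4 close paralogs, FKBP4, ROCK1, PIK3R1 and PIK3R2, in THP1 cells that had received a miR-511 mimic. The members were all non-control probes of the array whose gene name is one of these 7 genes. This gave 7 of 27193 gene names on the array, read by 10 of 34127 probes, of which 4 belong to the 3 reported targets and 6 to the paralogs.

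THP1 is a human monoblastic acute myeloid leukemia line that carries the fusion gene MLL-AF9, and all 4 samples come from this line. Cells of the group called miR-511 mimic received 30 nM of a precursor of hsa-miR-511-5p once, and cells of the group called control mimic received 30 nM of negative control #1 once. A mimic is a synthetic double-stranded RNA from which the cell loads a mature microRNA. Both groups were kept in low-serum medium with albumin and RNA was taken on day 2. There were 2 independent experiments, numbered 1 and 2, and each gave 1 sample per group, so that n = 2 per group throughout. Total RNA was hybridized with a single dye to 4 arrays, all on 1 slide. The untransfected line was not analysed here, and the amount of miR-511 reached in the cells was not measured on these arrays. The labels name the 5p strand only.

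A microRNA guides the Argonaute complex to messenger RNAs mainly by pairing of its seed, bases 2 to 8, with sites in the 3′UTR, and a paired transcript is repressed in translation and is often degraded. An array reads only the second of these, as a lower transcript level. FKBP5 and FKBP4 are immunophilins that bind the chaperone HSP90 in steroid receptor complexes, where FKBP5 lowers and FKBP4 favours the hormone response of the glucocorticoid receptor. ROCK2 and ROCK1 are serine/threonine kinases that RhoA activates and that drive actomyosin contraction and the migration of myeloid cells. PIK3R1, PIK3R2 and PIK3R3 encode p85α, p85β and p55γ, the regulatory subunits that hold and stabilize the class IA catalytic subunits of phosphoinositide 3-kinase.

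The mature sequences of both strands are shown because the seed decides which sites a strand can pair with. They are those of RefSeq (GRCh38.p14), written 5′ to 3′ with the seed in capitals, and lie on the plus strand at chr10:17845122-17845142 and chr10:17845160-17845179, within the span of MRC1, the gene of the macrophage mannose receptor (chr10:17809348-17911164).
hsa-miR-511-5p: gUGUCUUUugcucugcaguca
hsa-miR-511-3p: aAUGUGUAgcaaaagacaga
The seeds of the strands differ, so they do not share 7-base sites. The site of the 5p seed reads AAAGACA in a transcript written as DNA and occurs in 331 of the 34127 probe sequences (0.97%). The site of the 3p seed reads TACACAT and occurs in 147 (0.431%). Neither stands in any of the 10 member probes in the transcript's direction. Searched on both strands, the letters of the first occur in 661 probes (1.94%) and in no member, and those of the second in 355 (1.04%) and in 1 member probe, A_23_P130429 of ROCK1. Both sites occur together in 2 probes. The probes are 60 bases long and cover little of each transcript, and 3′UTRs were not analysed here.

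The arrays were checked against the labelled cell type first. All 8 monocytic genes with a probe, of 10 listed, were well above background on all 4 arrays, among them CD33, CD14, SPI1 and HOXA9. Of the epithelial markers only KRT8 was, and CDH1, EPCAM and KRT19 were so on no array. Of the lymphoid and erythroid markers, CD3D, CD8A, CD79A and HBB were among those that passed this mark on all arrays, and MS4A1 passed it on none. Between 64.8% and 69.3% of all probes were well above background per array. The array of miR-511 mimic replicate 1 had more low probes than the others. On it 269 of 21608 probes (1.24%) lay at least 0.90 below the mean of the other 3 arrays on the log2 scale. By the same measure 53, 41 and 88 probes did on control mimic replicate 1, miR-511 mimic replicate 2 and control mimic replicate 2. As far above lay 47 probes on miR-511 mimic replicate 1, against 62, 78 and 95 on those arrays. The distance of 0.90 was not set beforehand but is that of the member PIK3R2 on miR-511 mimic replicate 1.

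All 10 member probes were well above background on all 4 arrays, each printed once per array, and none was saturated or marked as an outlier spot. Their processed intensities ran from 194 to 9220, which cannot be set against each other between probes, and the scanner software put the error of a single spot at up to 10.1% of its intensity, or 0.14 on the log2 scale. No member passed the test between the mimics. None of the 10 probes reached an unadjusted p below 0.05 in limma, the threshold of the study's methods, and across all 22638 tested probes 2.2% did. After Benjamini-Hochberg adjustment over all tested probes the members' adjusted p was 1.00 in limma, and the smallest of any probe was 0.790. 8 of the 10 log2 differences were smaller than 0.1 in size, with a median of 0.0076, where the median of all tested probes was 0.0098 and their quartiles were -0.072 and 0.084.

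**Figure D1:**
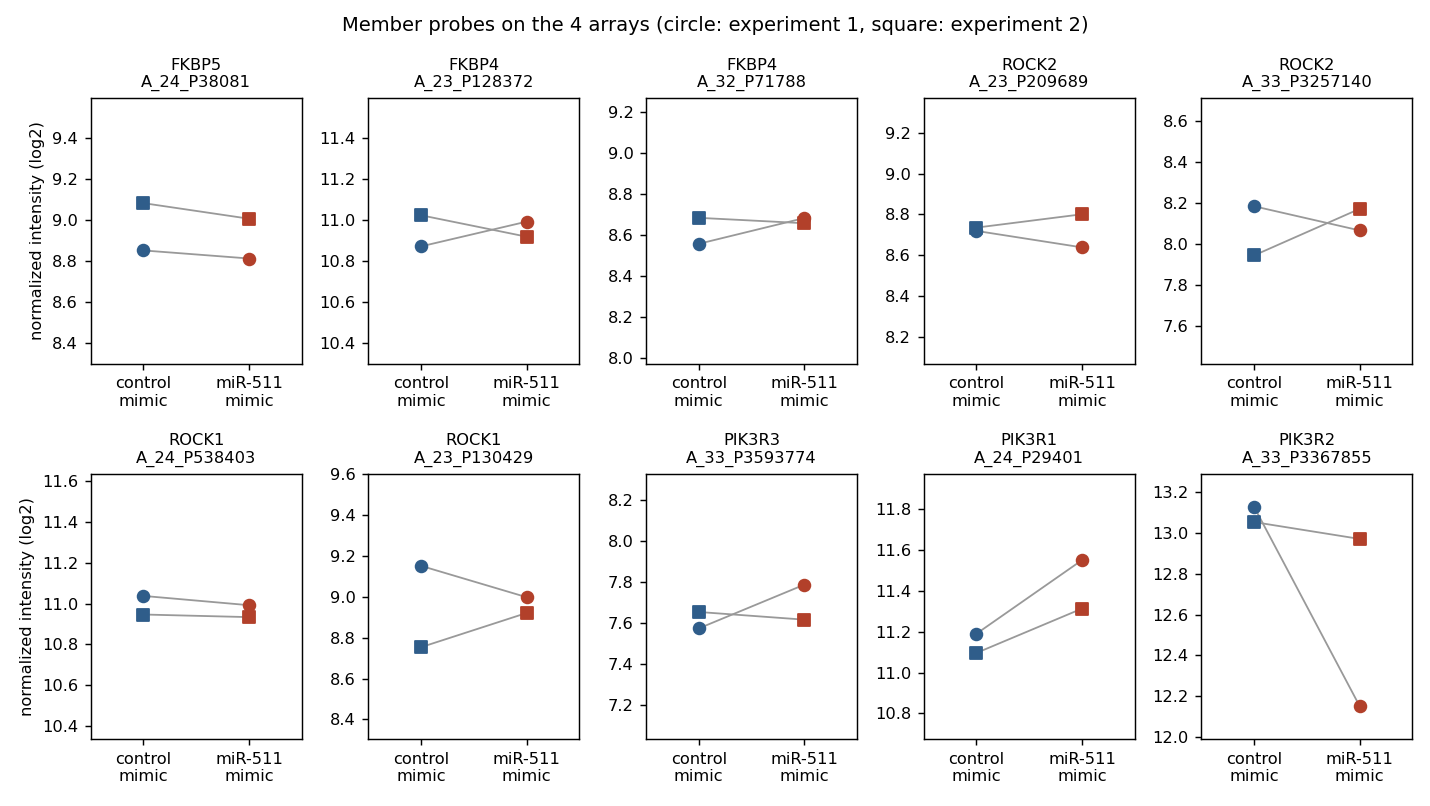
Normalized log2 intensity (vertical axis, each panel spanning the same range) of the 10 member probes with control mimic (blue) and miR-511 mimic (red), with a line joining the samples of one experiment. PIK3R1 is higher with miR-511 mimic in both experiments, and PIK3R2 is low on 1 array only.

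FKBP5, the inhibitor of glucocorticoid receptor signalling, was read by the probe A_24_P38081 (NM_004117, chr6:35541928-35541987 in hg19, the build of the array's annotation). Its normalized log2 intensity was 8.81 and 9.01 with miR-511 mimic and 8.85 and 9.08 with control mimic, in experiments 1 and 2. The groups overlapped, since both values of experiment 2 lay above both of experiment 1. The difference, miR-511 mimic minus control mimic, was -0.04 in experiment 1 and -0.08 in experiment 2. Over both it was -0.06 (SE 0.14, n = 2 per group), a change of -3.93% with a 95% interval from -25.9% to 24.6%. In bulk RNA, less transcript per cell and fewer cells that express a gene cannot be told apart. FKBP5 moved more between the experiments, by 0.19 with miR-511 mimic and 0.23 with control mimic, than between the mimics.

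FKBP4, its paralog, was read by 2 probes. With the probe A_23_P128372 (NM_002014, chr12:2912469-2912528) the log2 intensity was 10.99 and 10.92 with miR-511 mimic and 10.87 and 11.02 with control mimic. The difference was 0.0081 (SE 0.11), from 0.12 in experiment 1 and -0.10 in experiment 2. The other probe, A_32_P71788, spans an intron, with its 60 bases spread over chr12:2909056-2909213. It gave 8.68 and 8.66 with miR-511 mimic and 8.56 and 8.68 with control mimic, a difference of 0.05 (SE 0.10). Both probes were higher with miR-511 mimic in experiment 1 and lower in experiment 2, and the groups overlapped.

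ROCK2, the isoform described as a target of the 3p strand in macrophages, was likewise read by 2 probes. The sample labels name the other strand, and the level of the 3p strand in the cells was not measured. The values of ROCK2 thus cannot decide on that report. The probe A_23_P209689 (NM_004850, chr2:11322044-11322103) gave 8.64 and 8.80 with miR-511 mimic and 8.72 and 8.74 with control mimic. Its difference was -0.0076 (SE 0.10), a change of -0.53% with a 95% interval from -18.5% to 21.3%. The experiments pointed in opposite directions, with -0.08 in the first and 0.07 in the second. The probe A_33_P3257140 (chr2:11323476-11323535) gave 8.07 and 8.17 with miR-511 mimic and 8.18 and 7.94 with control mimic. Its difference was 0.05 (SE 0.13), from -0.12 in experiment 1 and 0.23 in experiment 2. On both probes ROCK2 was lower with miR-511 mimic in experiment 1 and higher in experiment 2.

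ROCK1, the paralog of ROCK2, differed between the mimics by less than its standard error on both probes. With the probe A_24_P538403 (NM_005406, chr18:18530232-18530291) the log2 intensity was 10.99 and 10.93 with miR-511 mimic and 11.04 and 10.95 with control mimic. The difference was -0.03 (SE 0.10), and this probe was lower with miR-511 mimic in both experiments, by -0.05 and -0.01. With the probe A_23_P130429 (chr18:18535132-18535191) it was 8.998 and 8.92 with miR-511 mimic and 9.15 and 8.75 with control mimic, a difference of 0.0070 (SE 0.17). Here the experiments disagreed, with -0.15 and 0.17.

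For the 3 genes with 2 probes each, the probes of a gene had the same sign of difference within an experiment in 5 of 6 cases. Over all 3137 genes with 2 tested probes this held in 3543 of 6274 cases (56.5%). The exception was ROCK1 in experiment 2. The 5 of 6 cases come from only 3 genes, and whether their share differs from that of all genes was not tested. Between the experiments the sign differed for 6 of the 10 member probes. Among all tested probes it was negative in both experiments for 21.7% and positive in both for 29.3%, so a change of sign was common.

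PIK3R3, encoding p55γ, is the reported target among the regulatory subunits. The probe A_33_P3593774 (NM_003629, chr1:46511591-46511650) gave 7.79 and 7.62 with miR-511 mimic and 7.57 and 7.65 with control mimic. The groups overlapped, since control mimic replicate 2 lay between both values of miR-511 mimic. The difference was 0.09 (SE 0.11), from 0.21 in experiment 1 and -0.04 in experiment 2, a change of 6.30% with a 95% interval from -13.7% to 31.0%.

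PIK3R1, encoding p85α, was the only member that was higher with miR-511 mimic in both experiments, as 29.3% of all tested probes were. The probe A_24_P29401 (NM_181523, chr5:67596786-67596845) gave 11.55 and 11.31 with miR-511 mimic and 11.19 and 11.10 with control mimic. The difference was 0.29 (SE 0.12, limma adjusted p = 1.00), from 0.36 in experiment 1 and 0.22 in experiment 2. This corresponds to 22.1% more signal, with a 95% interval from -3.65% to 54.8%, and 10.1% of all tested probes had a difference of at least this size. With the experiment as a block in limma the same difference had a smaller SE of 0.09 and passed the unadjusted threshold, at an adjusted p = 0.969.

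The PIK3R1 spot lay 2 columns from the edge of the array, and the processed intensity was 1.604 times the background-subtracted mean signal on miR-511 mimic replicate 1, against 1.34, 1.23 and 1.25 times on control mimic replicate 1, miR-511 mimic replicate 2 and control mimic replicate 2. When the mean signal was used instead, with normexp background correction, the difference of PIK3R1 was 0.09 in experiment 1 and 0.23 in experiment 2, or 0.16 over both. It kept its direction in both experiments. This setting changed the signal, its background correction and the correction for position together, and the part of each was not tested.

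PIK3R2, encoding p85β, had the largest difference of the members, and it came from 1 array. The probe A_33_P3367855 (NM_005027, chr19:18281283-18281342) gave 12.15 and 12.97 with miR-511 mimic and 13.13 and 13.05 with control mimic. The control values lay 0.07 apart and miR-511 mimic replicate 2 lay close below them, while miR-511 mimic replicate 1 was lower by 0.82 than replicate 2. The processed intensities were 4006 and 8900 with miR-511 mimic and 9220 and 8651 with control mimic. The difference was -0.97 in experiment 1 and -0.08 in experiment 2, and over both -0.53 (SE 0.30, limma adjusted p = 1.00), with a 95% interval from -1.35 to 0.29. Without miR-511 mimic replicate 2 it was -0.93 and passed the unadjusted threshold, and without miR-511 mimic replicate 1 it was -0.12 and did not. FKBP5, the brighter ROCK1 probe and PIK3R2 were the 3 of 10 member probes that were lower with miR-511 mimic in both experiments, where 21.7% of all tested probes were. By the mean signal with normexp FKBP5 was not, with 0.0041 in experiment 1 and -0.08 in experiment 2.

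The spots printed around PIK3R2 were also low on that array. Of the 56 spots within 6 rows and 3 columns of it with a signal well above background everywhere, 37 lay below the mean of the other 3 arrays on miR-511 mimic replicate 1, with a median deviation of -0.17, and 21 lay at least 0.5 below it. On the other 3 arrays the same spots had medians of 0.11, 0.10 and 0.07, and none lay 0.5 below. Over the other 39 combinations of a member spot and an array, the median deviation of the surrounding spots ran from -0.12 to 0.11, with at most 7 spots at least 0.5 below. One of the low spots was the brightest probe of HSP90AA1, printed 5 rows and 1 column from PIK3R2. When the median deviation of the surrounding spots was subtracted from every spot, a setting chosen after the values were seen, PIK3R2 differed by -0.44 and PIK3R1 by 0.24, and neither passed the threshold. The part of the spots' position in the low value of PIK3R2 was not tested further.

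**Figure D2:**
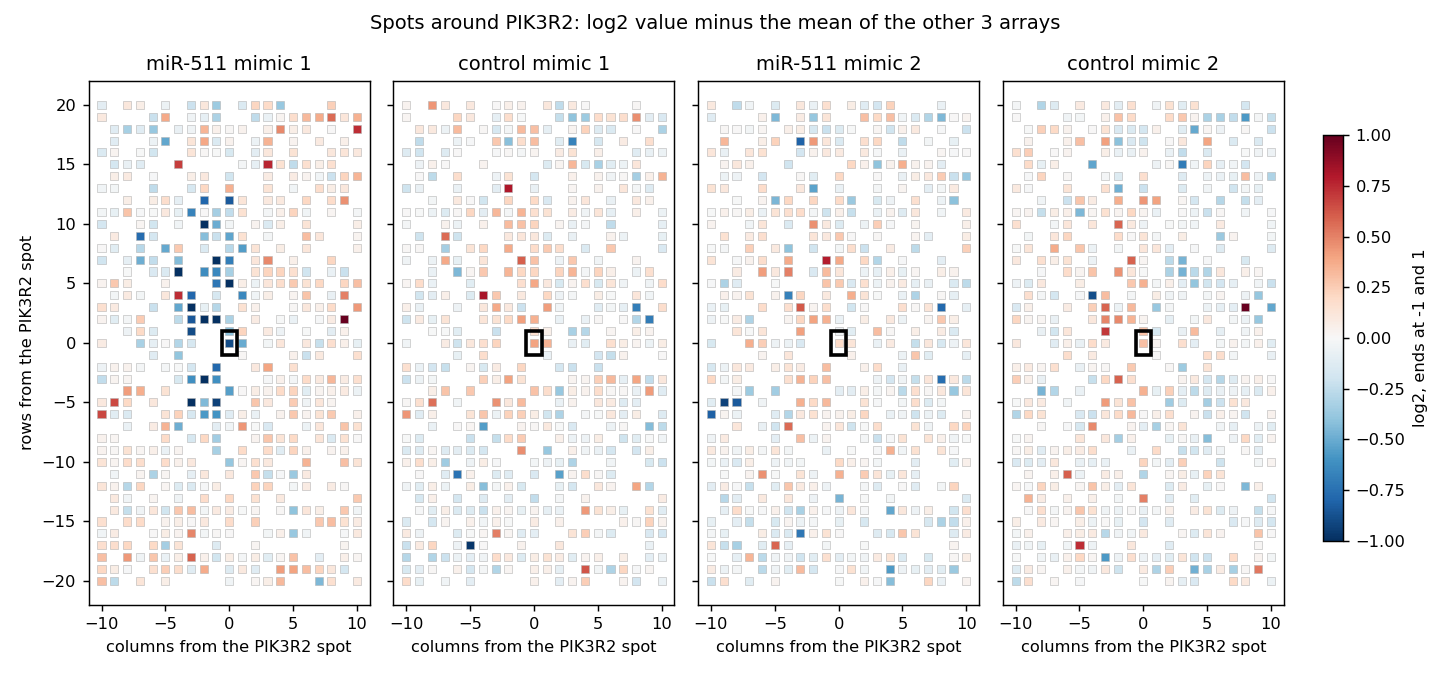
Deviation of each spot well above background on all arrays from its mean on the other 3 arrays (colour, log2), by columns (horizontal axis) and rows (vertical axis) from the PIK3R2 spot (black frame), 1 panel per array. On miR-511 mimic replicate 1 a patch of low spots (blue) holds the PIK3R2 spot and extends mostly to its left, and 21 of the 56 spots within 6 rows and 3 columns are at least 0.5 low, while none is on the other 3 arrays.

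**Figure D3:**
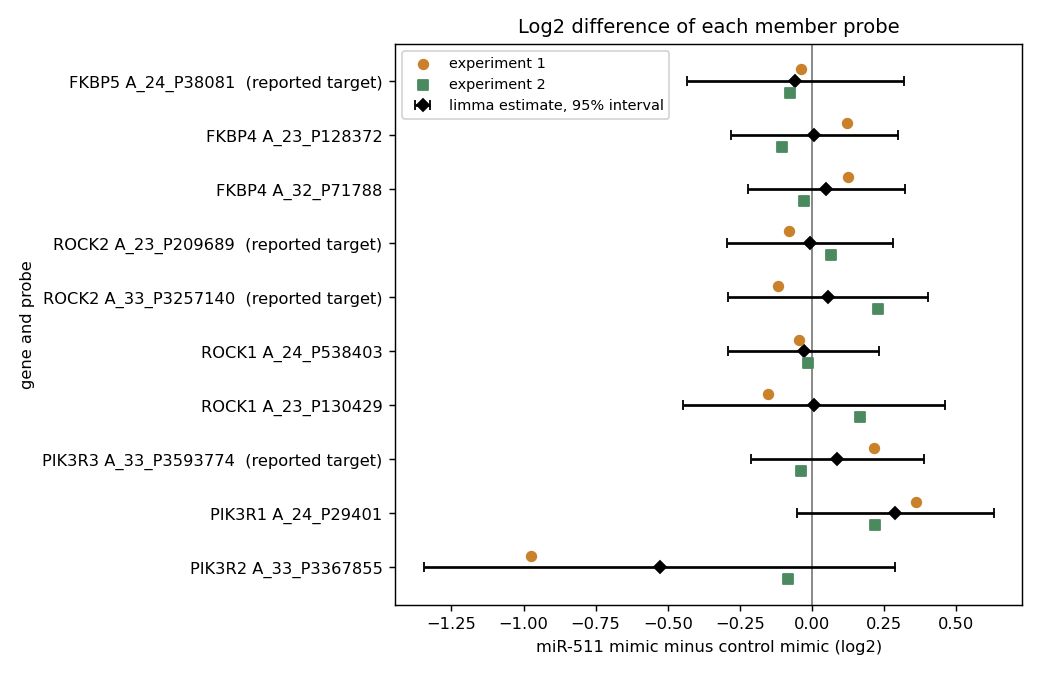
Log2 difference, miR-511 mimic minus control mimic (horizontal axis), of each member probe (vertical axis): limma estimate with 95% interval (black) and the differences within experiment 1 (orange) and experiment 2 (green). All 10 intervals include 0, and the interval of PIK3R2 is the widest.

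Each reported target was then set against its paralog within every array, which asks whether the target fell relative to the paralog. Whether the paralogs carry miR-511 sites of their own was not analysed. The brightest probe stood for a gene. FKBP5 minus FKBP4 changed by -0.07 (SE 0.14), from -0.16 in experiment 1 and 0.03 in experiment 2. ROCK2 minus ROCK1 changed by 0.02 (SE 0.12), from -0.04 and 0.08. ROCK2 was described for the strand that the labels do not name, so this pair cannot decide on that report. In neither pair did the target move apart from its paralog by more than the SE. Neither the SE nor the permutation test of the pairs used the pairing of arrays by experiment. The SE thus includes variation between the experiments. The exact two-sided permutation test over the 4 arrays (p = 1 for both) could not have called either pair, with 2 arrays against 2.

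PIK3R3 minus PIK3R1 changed by -0.20 (SE 0.09), with -0.15 in experiment 1 and -0.25 in experiment 2. PIK3R3 minus PIK3R2 changed by 0.62 (SE 0.50), with 1.19 in experiment 1 and 0.04 in experiment 2, and was 0.12 without miR-511 mimic replicate 1. Both had p = 0.333 by the exact permutation test, and 0.667 after adjustment over the 4 pairs compared. With 2 arrays against 2 this test cannot go below 0.333, so it could not have called any pair. The probes of paralogs shared at most 7 consecutive bases and at most 24 of 60 bases in any ungapped alignment.

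The genes around the members were described with 4 lists that together hold 97 genes and 130 tested probes, members not included. The FKBP family and the HSP90 cochaperones had 0 of 38 tested probes (24 of 25 genes) past the unadjusted threshold, with a median log2 difference of 0.01. HSP90AB1, the constitutive HSP90, differed by 0.08 (SE 0.10) and NR3C1, the glucocorticoid receptor, by 0.0090 (SE 0.09), each by its brightest probe. The other probe of HSP90AB1 differed by -0.04 (SE 0.10) and that of NR3C1 by 0.01 (SE 0.10). The brightest probe of HSP90AA1, the inducible HSP90, differed by -0.33 (SE 0.28), from -0.67 in experiment 1 and 0.01 in experiment 2, and its other 2 probes by 0.07 and 0.06.

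Genes that glucocorticoids are known to induce had 0 of 13 tested probes (12 of 13 genes) past the threshold and a median difference of 0.02. The activity of the glucocorticoid receptor itself was not measured on the arrays. CD163, the haemoglobin scavenger receptor, was too dim to be tested. FKBP5 itself belongs to the genes glucocorticoids induce and was not counted in this list.

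The RhoA-ROCK list had 1 of 40 tested probes (26 of 30 genes) past the unadjusted threshold, or 2.5%, against 2.2% of all tested probes, and a median difference of 0.0036. The probe was A_33_P3257607 of PPP1R12B, a regulatory subunit of myosin phosphatase, which ROCK phosphorylates. It gave 5.09 and 4.99 with miR-511 mimic and 4.71 and 4.79 with control mimic. It was higher by 0.30 (SE 0.10, limma adjusted p = 1.00), from 0.39 and 0.20, and was no longer past the unadjusted threshold with the replicate block. The other 3 probes of PPP1R12B differed by -0.09, 0.12 and 0.03 and did not pass. RHOA, the GTPase that activates both kinases, differed by -0.05 (SE 0.09). The lowest difference of the list was that of ADD1, encoding the cytoskeletal protein adducin 1, with -1.31 (SE 1.05). It came from -2.87 in experiment 1 and 0.25 in experiment 2. Its log2 intensity was 4.91 on miR-511 mimic replicate 1, the array with more low probes than the others. It was 7.78 on control mimic replicate 1, 7.92 on miR-511 mimic replicate 2 and 7.67 on control mimic replicate 2. The cause was not tested.

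The class I PI3K-AKT list had 0 of 41 tested probes (28 of 30 genes) past the threshold and a median difference of -0.01. Of the catalytic subunits that the regulatory members bind, PIK3CA differed by -0.02 (SE 0.12), PIK3CB by 0.08 (SE 0.15) and PIK3CD by -0.04 (SE 0.22), each by its brightest probe. The other probe of PIK3CD, A_33_P3353941, differed by 0.21 (SE 0.25), from 0.06 and 0.35. PIK3CG, the class IB subunit that binds other regulatory proteins, was higher by 0.24 in both experiments (SE 0.13), which did not pass the threshold.

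**Figure D4:**
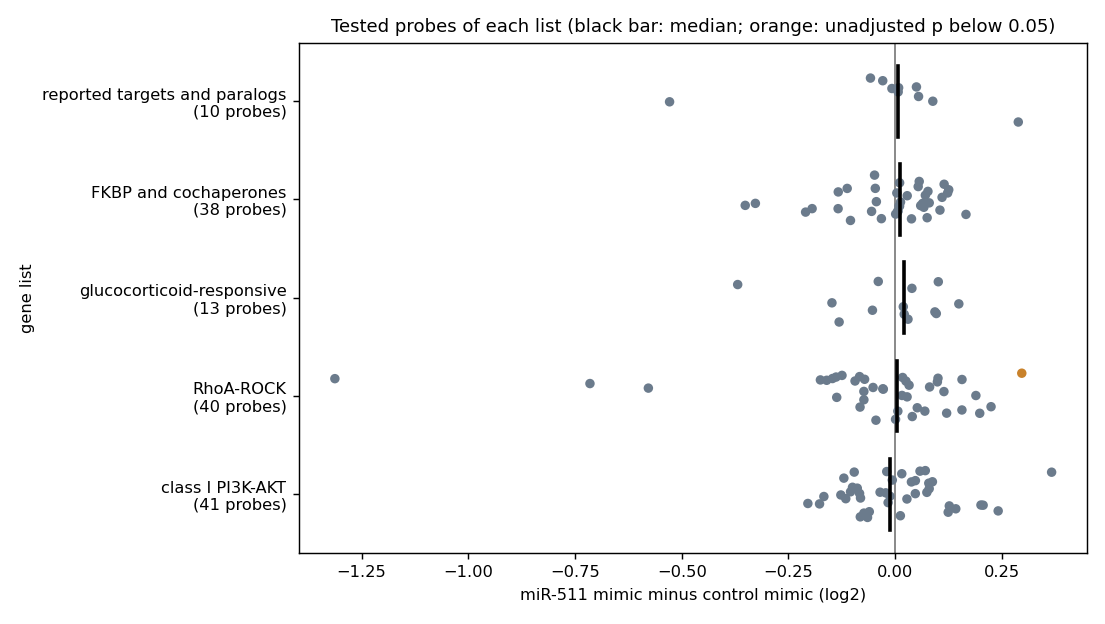
Log2 difference, miR-511 mimic minus control mimic (horizontal axis), of the tested probes of the reported targets and paralogs and of the 4 lists (vertical axis), each point 1 probe, black bars the medians. The medians lie between -0.01 and 0.02, and 1 probe of PPP1R12B passed the unadjusted threshold (orange). ADD1, low on miR-511 mimic replicate 1 only, lies lowest at -1.31.

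For each reported target the genes with the most similar pattern over the 4 arrays were sought among 17994 or 17995 probes of named genes. Similarity was measured by the root mean square distance of log2 values centred on each probe's mean. Nearest to FKBP5 were USP7, CCNG1 and HIST1H2BB at distances of 0.0042, 0.0044 and 0.0091. Nearest to ROCK2 were C6orf129, CRABP2 and TMEM185B at 0.00088, 0.0024 and 0.0052, and among the 3 nearest to PIK3R3 were MEGF9 and DMTF1, both at 0.0082. With 4 arrays such matches were common, since 642, 1506 and 1033 probes lay within 0.05 of FKBP5, ROCK2 and PIK3R3.

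The intervals describe the precision of each probe's estimate, in the fit without a term for the experiment. ROCK2 is counted among the reported targets here, although it was described for the strand that the labels do not name. Over the 4 probes of the reported targets the estimates ran from -0.06 to 0.09. The lower ends of their 95% intervals were -25.9% for FKBP5, -18.5% and -18.3% for the ROCK2 probes and -13.7% for PIK3R3. With the experiment as a block the SE was 0.08 for FKBP5, 0.09 and 0.13 for the ROCK2 probes and 0.11 for PIK3R3. Protein levels were not measured on the arrays.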

How the data were processed

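The authors profiled total RNA of THP1 cells on single-dye (Cy3) Agilent Human Whole Genome arrays of 60-base probes. They deposited 1 scanner file per array with spot intensities that the Agilent Feature Extraction software had background-subtracted and detrended within the array (version 10.5.1.1 per the submitters' processing notes, 10.7.3.1 per the file headers), and a table of log2 values that the authors had quantile normalized. Coordinates are those of the array's hg19 annotation.

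With R 4.3.3 and limma 3.58.1, log2 processed intensities of non-control spots were quantile normalized without 232 to 301 outlier-marked spots per array, spots of a probe were averaged, and 22638 of 34127 probes, well above background on both arrays of a group, were tested with lmFit and eBayes (4.14 degrees of freedom, two-sided p). Means, SE and intervals rest on 2 arrays per group and on no technical repeat of an array, and their number limits the precision. The members and gene lists were chosen with earlier results of these data known. All member probes are named, together with list genes past the unadjusted threshold, 8 preset binding partners and, for each reported target, the 3 nearest patterns. ADD1 and CD163 were chosen outside this rule, after their values were seen. Some marker and nearest-pattern genes are not reported here. All 10 member accessions matched the same symbol in RefSeq (GRCh38.p14). The same functions were tested on simulated data.

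The labels give each array's experiment, and samples of one experiment deviated together (correlation 0.271 across probes), so the number pairs the arrays. Alternatives to these choices were scaling to the 75th percentile, background correction by normexp with an offset of 50, dim probes kept or filtered more strictly, marked spots kept, the authors' table of log2 values, the experiment as a replicate block, a trend with intensity in eBayes, a plain equal-variance test of each probe without moderation, the median of spots, the mean of a gene's probes for the pairs and each array left out. Removal of the local median was added after the values were seen.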

Additional observations from a re-analysis of the deposited data

How the results depend on the processing

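Over the alternatives that kept all arrays, 9 of the 10 member probes kept their direction, and FKBP4 probe A_32_P71788 turned to -0.0065 when the local median was removed. The count of members past the unadjusted threshold was 1 with the replicate block and 1 with an intensity trend in eBayes, both times PIK3R1 at 0.29, and 0 otherwise. Of the gene lists, RhoA-ROCK had 0 probes past the threshold with normexp, the replicate block, the intensity trend and the local median removed and 2 by a plain unmoderated test of each probe, which also gave 2 for the FKBP list and 1 for PI3K-AKT. The glucocorticoid-responsive list had 1, CD163, without a filter on dim probes. Causes were not tested.

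With 1 array left out, the lone array of a group is assumed to vary like the other group. The differences then ran from -0.17 to 0.058 for FKBP5, -0.069 to 0.085 and -0.014 to 0.11 for the FKBP4 probes A_23_P128372 and A_32_P71788, -0.085 to 0.074 and -0.066 to 0.17 for the ROCK2 probes A_23_P209689 and A_33_P3257140, -0.074 to 0.017 and -0.19 to 0.21 for the ROCK1 probes A_24_P538403 and A_23_P130429, 0.0030 to 0.18 for PIK3R3, 0.17 to 0.41 for PIK3R1 and -0.93 to -0.12 for PIK3R2. Between 0 and 2 members passed, the latter without miR-511 mimic replicate 2, when PIK3R1 at 0.41 and PIK3R2 at -0.93 did. The FKBP list had 0 to 3 probes past the threshold, the glucocorticoid list 0 to 2, RhoA-ROCK 0 to 2 and PI3K-AKT 0 to 1. FKBP5 minus FKBP4 ran from -0.20 to 0.067, ROCK2 minus ROCK1 from -0.085 to 0.13, PIK3R3 minus PIK3R1 from -0.29 to -0.11 and PIK3R3 minus PIK3R2 from 0.12 to 1.11. With normexp and all arrays, PIK3R3 minus PIK3R1 was -0.076.

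Of all tested probes, 498 passed the unadjusted threshold, against 265 with normexp, 285 with the trend, 894 with the replicate block, 708 by the plain unmoderated test, 1029 of 34083 without the filter and 713 to 1438 with 1 array left out. None passed after adjustment under any of these. With 1 slide no slide block could be fitted. The members' mean signal was at least 7.56 times the local background, and its part in their errors was not tested.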
